A study of Mus musculus with 16 samples.

Results

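Many mammalian miRNAs are encoded inside protein-coding genes, and the 8 mature miRNAs described here come from hairpins that lie within genes known for their roles in neurons. They are mmu-miR-153-5p and mmu-miR-153-3p (Ptprn2), mmu-miR-488-3p (Astn1), mmu-miR-346-5p (Grid1), mmu-miR-708-5p and mmu-miR-708-3p (Tenm4), mmu-miR-139-5p (Pde2a) and mmu-miR-218-5p (Slit2 and Slit3). They were taken by name from the 1881 mature mouse miRNAs on the array, and all 8 were among the 495 miRNAs tested. The set was selected on the measured genotype difference, as several of its members were known to be lower in Dgcr8+/- mice. The genotype differences of these 8 miRNAs are therefore given as a description, with no p-value. The samples were the wall of the lateral ventricle (LV) of 16 male mice at 8 months of age, 8 wild-type (WT) and 8 littermates carrying 1 mutant Dgcr8 allele (Dgcr8+/-), with 1 mouse per array. No other allele or agent is named for either group. The heterozygous mutation is present in all cells of the animal, and the LV wall was measured as a whole tissue with several cell types.

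An intronic miRNA is usually made from the transcript of its host gene, so that its supply depends on host transcription. In the nucleus, the Microprocessor, in which the RNA-binding protein Dgcr8 works with the nuclease Drosha, cuts the hairpin out of the primary transcript. Dicer then trims the hairpin to a duplex, and 1 or both arms (5p and 3p) are loaded into Argonaute proteins, where the seed near the 5′ end directs the pairing with target mRNAs. Ptprn2 is a transmembrane protein of dense-core secretory vesicles, Astn1 is an adhesion protein of migrating neurons, and Grid1 is a delta-type glutamate receptor subunit that organizes synapses. Tenm4 is a teneurin, a transmembrane adhesion protein, Pde2a hydrolyses cyclic nucleotides, and Slit2 and Slit3 are secreted guidance ligands of Robo receptors.

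The mature sequences are shown because the arms of a hairpin and the families that share a seed are compared in the results. They are from RefSeq (GRCm38.p6), 5′ to 3′, with the seed, bases 2 to 8, in capitals.
mmu-miR-153-5p: gUCAUUUUugugacguugcagcu
mmu-miR-153-3p: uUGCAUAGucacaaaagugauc
mmu-miR-488-3p: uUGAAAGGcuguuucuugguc
mmu-miR-346-5p: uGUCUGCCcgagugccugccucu
mmu-miR-708-5p: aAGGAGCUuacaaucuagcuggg
mmu-miR-708-3p: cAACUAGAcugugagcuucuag
mmu-miR-139-5p: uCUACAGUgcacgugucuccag
mmu-miR-218-5p: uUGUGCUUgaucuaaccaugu

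The 8 miRNAs carried 8 distinct seeds, so that none of them belonged to the same seed family. Among the 1679 mature mouse miRNAs in the sequence table, 2 other miRNAs shared a seed with a member. The seed of miR-708-5p, AGGAGCU, was also that of miR-28a-5p (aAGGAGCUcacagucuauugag), whose hairpin lies in Lpp. The seed of miR-218-5p, UGUGCUU, was also that of miR-7002-3p, which was not detected on enough arrays to be tested. The GC content of the members ranged from 36.4% in miR-153-3p to 65.2% in miR-346-5p, and the middle range over the 426 tested miRNAs with a sequence, from the lower to the upper quartile, was 41.8% to 60.9%.

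All hairpins lay within the span of their host gene in the GRCm38.p6 gene table. Exons and introns are not resolved by that table. The arms of miR-153 were at chr12:117250821-117250843 and chr12:117250860-117250881, on the strand of Ptprn2 and 96.5% of the way along this gene of 792473 bp. The arms of miR-708 were at chr7:96249450-96249472 and chr7:96249496-96249517, 10.6% of the way along Tenm4 on its strand. MiR-488-3p was at chr1:158505689-158505709, 43.6% of the way along Astn1, and miR-139-5p at chr7:101475382-101475403, 58.9% of the way along Pde2a, each on the host's strand. MiR-346-5p was at chr14:34894624-34894646, within the span of Grid1, whose strand was not available, so that a shared strand could not be checked. MiR-218-5p has 2 genes with the same mature sequence, at chr5:48223966-48223986 in Slit2 and chr11:35616840-35616860 in Slit3, both on the host's strand. The array cannot tell these genes apart.

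The array signal is a fluorescence intensity, given here as log2 after quantile normalization between arrays. This scaling makes each genotype difference relative to the other miRNAs on the same array. All log2 fold changes are Dgcr8+/- minus WT, and a miRNA was tested if the scanner software called it detected on 8 or more arrays. All 8 members were detected on all 16 arrays. The summed miRNA signal before normalization was 21545358 to 29763412 in WT mice and 18528866 to 23440575 in Dgcr8+/- mice, 495 to 540 and 467 to 492 miRNAs were detected, and no spot was saturated. Dgcr8+/- replicate 2 stood apart, with the lowest summed signal and a mean log2 labelling spike-in signal of 8.05, compared with 8.57 to 9.05 on the other arrays. The arrays were spread unevenly over 2 slides, with 6 WT and 2 Dgcr8+/- mice on slide 1 and the opposite numbers on slide 2. Differences are therefore also given with the slide as a block in the fit and within each slide.

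All 8 miRNAs were lower in Dgcr8+/- mice, with log2 fold changes from −0.85 in miR-708-3p to −0.15 in miR-218-5p and a median of −0.62. Over all 495 tested miRNAs, the median was 0.04 and the quartiles were −0.27 and 0.27. All 8 passed the adjusted p threshold of 0.05 in the limma fit, and 27.9% of the tested miRNAs were called lower and 28.3% were called higher. In 5 of the 8, every Dgcr8+/- array lay below every WT array, as was the case for 17.2% of the tested miRNAs. These counts follow from the choice of the members and nothing is read from them. In a whole tissue, fewer cells of a type and less of a miRNA per cell cannot be told apart.

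**Figure D1:**
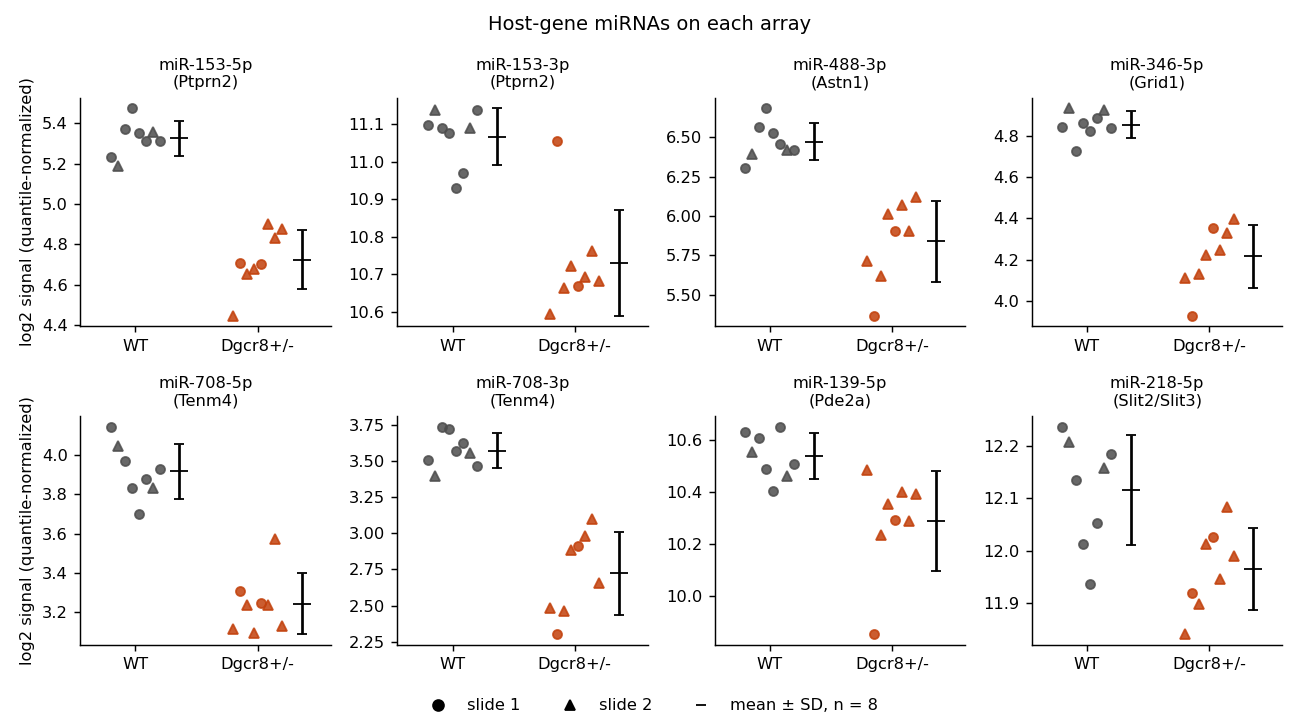
Log2 signal (quantile-normalized, y axis, a separate scale per panel) of the 8 miRNAs in 8 WT and 8 Dgcr8+/- mice, with 1 point per array, circles for slide 1, triangles for slide 2, and bars for the mean ± SD. The genotypes did not overlap for miR-153-5p, miR-488-3p, miR-346-5p, miR-708-5p and miR-708-3p, and overlapped for miR-153-3p, miR-139-5p and miR-218-5p.

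Both arms of the hairpin in Tenm4, a teneurin and adhesion protein of synapses and growing axons, were lower. The log2 signal of miR-708-3p was 3.40, 3.56 and 3.74 in WT mice (lowest, median and highest of 8) and 2.30, 2.77 and 3.1 in Dgcr8+/- mice. The genotypes did not overlap, and the Dgcr8+/- mice were more spread out, with a mean of 2.72 ± 0.29 (SD, n = 8) compared with 3.57 ± 0.12 (SD, n = 8). The log2 fold change of miR-708-3p was −0.85 (standard error 0.10), a change of −44.5% in signal. For miR-708-5p, the log2 signal was 3.70, 3.90 and 4.15 in WT mice and 3.09, 3.24 and 3.58 in Dgcr8+/- mice. Every Dgcr8+/- mouse was again below every WT mouse, although replicate 7, at 3.58, stood above the other 7, which were at 3.09 to 3.31. The WT mean was 3.92 ± 0.14 (SD, n = 8) and the Dgcr8+/- mean 3.24 ± 0.15 (SD, n = 8), which gives a log2 fold change of −0.67 (standard error 0.07).

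The miR-708 arms were the dimmest members, and their values rested on the brighter probes. Each arm had 4 probes. For miR-708-3p, 2 probes fell by 0.81 and 0.79 on the log2 scale, whereas the other 2 were at the floor of 1 signal unit on 16 and 12 arrays and gave log2 fold changes of 0 and 0.10. For miR-708-5p, 3 probes had log2 fold changes of −1.07, −0.59 and −0.67, and the probe at the floor on 15 arrays gave 0.05. With the log2 values of the probes averaged instead of their signals, the log2 fold change of miR-708-3p was −0.38. MiR-708-5p also depended on 1 spot, of 36518 signal units on Dgcr8+/- replicate 2, which the scanner software had marked as an outlier. With marked spots kept, that array rose from 3.31 to 11.23 and the log2 fold change of miR-708-5p was 0.37. With the authors' total signal per miRNA it was −0.35.

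The same seed as in miR-708-5p is present in miR-28a-5p, from a hairpin in Lpp, a widely expressed gene for a protein of cell adhesions. MiR-28a-5p was not among the selected miRNAs and was also lower, at −0.52 on the log2 scale (standard error 0.06, limma with Benjamini-Hochberg adjustment, adjusted p = 6.21e-06), as were 27.9% of all tested miRNAs. It was dim too, with a mean log2 signal of 3.76 in WT mice, and was detected on 8 WT and 6 Dgcr8+/- arrays.

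MiR-346-5p, from the glutamate receptor gene Grid1, had a log2 signal of 4.73, 4.86 and 4.94 in WT mice (lowest, median and highest) and 3.93, 4.23 and 4.40 in Dgcr8+/- mice. It had the tightest WT values of the set, and the genotypes were separated by a gap wider than the WT range. Means were 4.86 ± 0.07 (SD, n = 8) and 4.22 ± 0.15 (SD, n = 8), with a log2 fold change of −0.64 (standard error 0.06). All 4 probes were lower, by 0.43 to 0.67 on the log2 scale for the dimmest and the brightest (−0.43 and −0.67). The dimmest probe was at the floor on 5 arrays, and its difference had a standard error of 0.31. The within-slide differences were −0.69 on both slides.

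MiR-488-3p, from the neuronal adhesion gene Astn1, had a log2 signal of 6.30, 6.44 and 6.68 in WT mice and 5.37, 5.90 and 6.12 in Dgcr8+/- mice. All Dgcr8+/- mice were below all WT mice, and the lowest value was that of replicate 2, the array with the lowest summed signal. Between the means of 6.47 ± 0.12 (SD, n = 8) and 5.84 ± 0.26 (SD, n = 8), the log2 fold change was −0.63 (standard error 0.10), and both probes gave nearly the same value, −0.63 and −0.64. The difference was −0.86 on slide 1, which holds replicate 2, and −0.50 on slide 2.

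The arms of the Ptprn2 hairpin differed in the size of the fall. MiR-153-5p had a log2 signal of 5.19, 5.33 and 5.48 in WT mice and 4.45, 4.70 and 4.90 in Dgcr8+/- mice, with no overlap. The means of this arm were 5.33 ± 0.09 (SD, n = 8) and 4.72 ± 0.15 (SD, n = 8), for a log2 fold change of −0.60 (standard error 0.06). MiR-153-3p had a log2 signal of 10.93, 11.09 and 11.14 in WT mice and 10.59, 10.69 and 11.06 in Dgcr8+/- mice. In this arm, 7 of 8 Dgcr8+/- mice were below every WT mouse, and replicate 2, at 11.06, lay among the WT mice and above the other 7, at 10.59 to 10.76. Before normalization between arrays, replicate 2 was at 10.12, below the lowest WT mouse, at 10.88. WT mice averaged 11.07 ± 0.08 (SD, n = 8) and Dgcr8+/- mice 10.73 ± 0.14 (SD, n = 8), for a log2 fold change of −0.34 (standard error 0.06). Both probes of each arm gave similar values, −0.63 and −0.59 for the 5p arm and −0.34 and −0.34 for the 3p arm.

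Pde2a encodes a phosphodiesterase that is activated by cGMP, and its miRNA, miR-139-5p, fell less. The log2 signal was 10.41, 10.53 and 10.65 in WT mice and 9.85, 10.32 and 10.49 in Dgcr8+/- mice. The genotypes overlapped, since Dgcr8+/- replicate 1, at 10.49, lay within the WT range, and replicate 2, at 9.85, was far below the other Dgcr8+/- mice. On average, the signal was 10.54 ± 0.09 (SD, n = 8) in WT and 10.29 ± 0.19 (SD, n = 8) in Dgcr8+/- mice, with a log2 fold change of −0.25 (standard error 0.07). Without replicate 2 it was −0.19, and with marked spots kept it was −0.22 and did not pass. The 3 probes agreed closely, at −0.25, −0.26 and −0.25. The difference was −0.48 on slide 1 and −0.15 on slide 2, and −0.31 (standard error 0.08) with the slide as a block.

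The smallest fall of the set was that of miR-218-5p, the product of the hairpins in both Slit genes. Its log2 signal was 11.94, 12.15 and 12.24 in WT mice and 11.84, 11.97 and 12.08 in Dgcr8+/- mice. The ranges overlapped, and only 3 Dgcr8+/- mice were below every WT mouse. With means of 12.12 ± 0.10 (SD, n = 8) and 11.96 ± 0.08 (SD, n = 8), the log2 fold change was −0.15 (standard error 0.05), a change of −9.90% in signal. The call was lost under several other ways of processing the arrays, for example with the authors' total signal per miRNA (log2 fold change −0.07).

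The slides gave the same direction for all 8 miRNAs. The members were chosen on these same arrays, so nothing is read from this agreement. With the slide as a block, the log2 fold changes were −0.59 (miR-153-5p), −0.31 (miR-153-3p), −0.68 (miR-488-3p), −0.69 (miR-346-5p), −0.67 (miR-708-5p), −0.86 (miR-708-3p), −0.31 (miR-139-5p) and −0.17 (miR-218-5p). On slides 1 and 2, the difference was −0.998 and −0.71 for miR-708-3p, −0.63 and −0.71 for miR-708-5p, −0.64 and −0.54 for miR-153-5p, −0.19 and −0.43 for miR-153-3p, and −0.12 and −0.22 for miR-218-5p. Slide 1 holds replicate 2, and its 2 Dgcr8+/- mice gave the smaller fall for miR-153-3p and the greater fall for miR-708-3p. Within a single slide, miR-153-3p and miR-218-5p did not pass the threshold on slide 1, nor miR-139-5p on slide 2. Of all tested miRNAs, 124 were lower and 89 higher on slide 1, and 103 were lower and 108 higher on slide 2. Without Dgcr8+/- replicate 2, the differences ranged from −0.79 in miR-708-3p to −0.14 in miR-218-5p. All 8 miRNAs then passed the threshold, beside 150 lower and 170 higher of the 495 tested, and nothing is read from this count.

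By host, the falls after quantile normalization without a slide block ordered as Tenm4, Grid1, Astn1, the 5p arm of Ptprn2, the 3p arm of Ptprn2, Pde2a and Slit2/Slit3, from the greatest to the smallest. MiR-708-5p, miR-346-5p, miR-488-3p and miR-153-5p, from 4 different hosts, differed from each other by at most 0.07 on the log2 scale, with standard errors of these differences of 0.07 to 0.14, and their order is not resolved. With the slide as a block, for example, miR-346-5p and miR-488-3p came before miR-708-5p. MiR-139-5p and miR-153-3p differed by 0.08 (−0.08, standard error 0.12), and miR-139-5p and miR-218-5p by 0.10 (−0.10, standard error 0.08), so that the order within these pairs is not resolved either. The gap between miR-153-5p and miR-218-5p was −0.45 (standard error 0.07).

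Within this set and after quantile normalization, the 3 brightest miRNAs fell less than the other 5. The 3 brightest miRNAs, miR-218-5p, miR-153-3p and miR-139-5p, had mean linear signals of 4436, 2144 and 1489 units in WT mice and log2 fold changes of −0.15 to −0.34. A signal depends on the probe as well as on the miRNA, so these are levels on the array and not abundances. The other 5 had mean linear signals of 11.9 to 88.7 units in WT mice and log2 fold changes of −0.60 to −0.85. Across all tested miRNAs divided into 3 equal groups by WT signal, the share called lower was 25.5%, 29.7% and 28.5% from the dimmest to the brightest, and the median log2 fold change was 0.08, 0.14 and −0.02. Among the 48 tested miRNAs at or above the WT signal of miR-139-5p, the 3 members included, 9 were lower and the greatest fall was −0.41, for miR-342-3p of Evl, as the plot of difference against signal shows. The part of array background and signal range in the size of the falls was not tested.

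**Figure D2:**
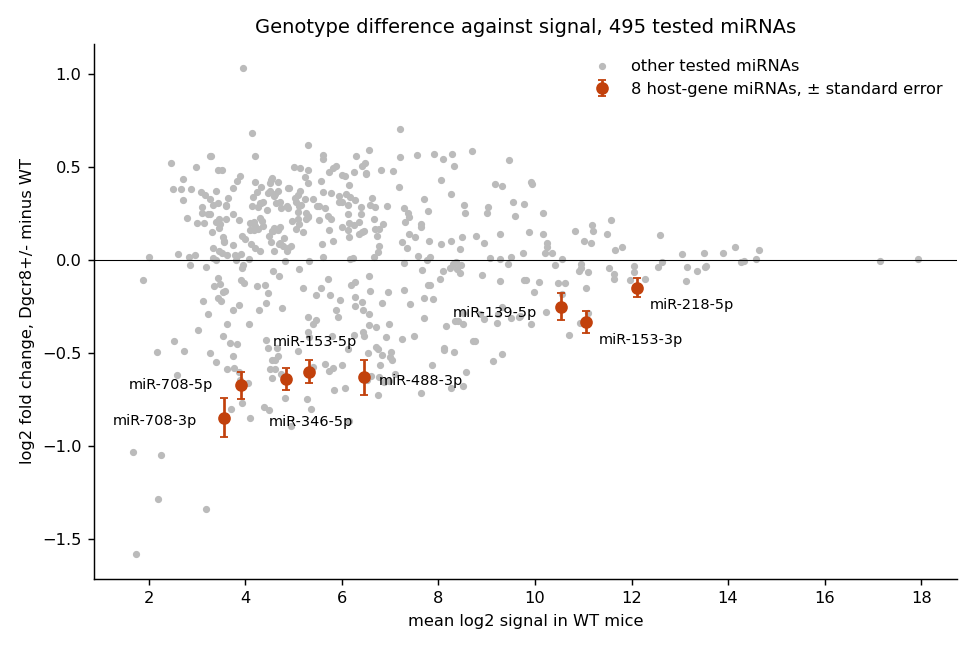
Log2 fold change (Dgcr8+/- minus WT, y axis) against the mean log2 signal in WT mice (x axis) for the 495 tested miRNAs, with the 8 host-gene miRNAs in orange (bars, standard error). The 5 dimmer miRNAs lie between −0.60 and −0.85 and the 3 brighter ones between −0.15 and −0.34.

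When the background was corrected with the normexp method on the median spot signal, with an offset of 50 signal units, the order changed. The log2 fold changes were then −0.20 (miR-153-5p), −0.32 (miR-153-3p), −0.32 (miR-488-3p), −0.17 (miR-346-5p), −0.11 (miR-708-5p), −0.09 (miR-708-3p), −0.23 (miR-139-5p) and −0.15 (miR-218-5p). The 3 brightest miRNAs stayed within 0.02 of their values, whereas the 5 dimmer miRNAs, 4 of which had a WT signal below this offset, had smaller differences. With no normalization between arrays, all 8 fell further, from −1.23 in miR-708-3p to −0.67 in miR-218-5p, while the median over all tested miRNAs moved to −0.39. No tested miRNA was then called higher in limma (0 also at an unadjusted p under 0.05, and 2 unadjusted by the methods' t-test), so that the rises given for other miRNAs are relative to the array as a whole.

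**Figure D3:**
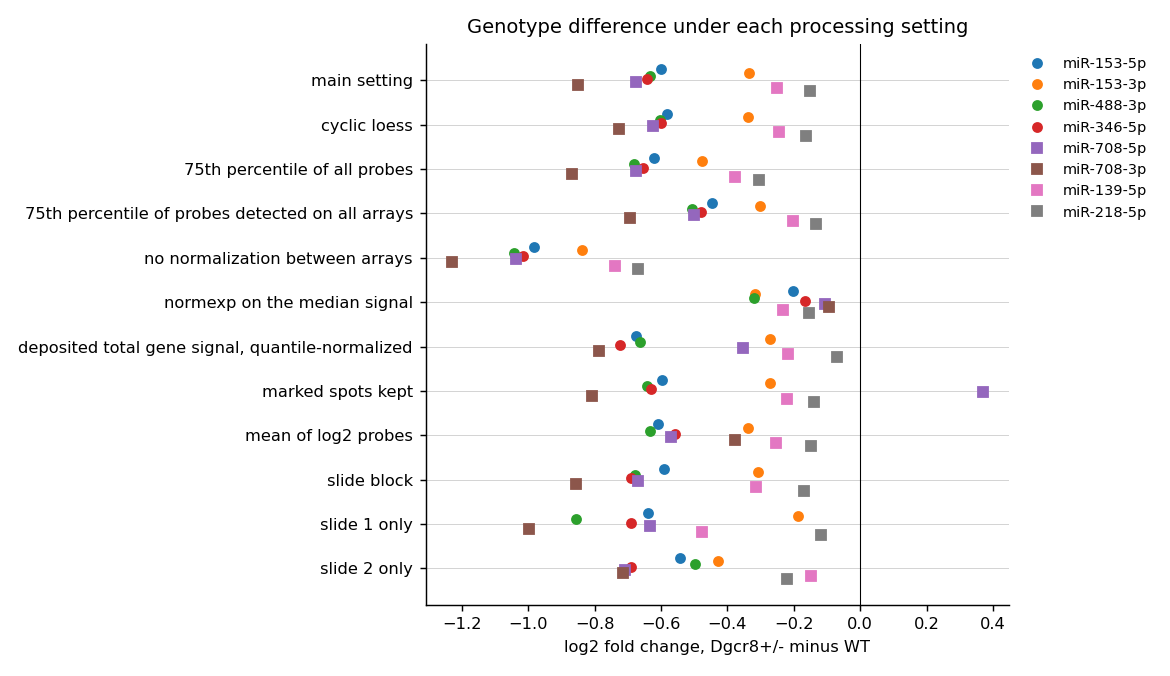
Log2 fold change (Dgcr8+/- minus WT, x axis) of each of the 8 miRNAs under the main setting and 11 other settings (y axis), with 1 colour per miRNA. Apart from miR-708-5p with marked spots kept, at 0.37, all points are below 0, and the order of the miRNAs changes with the normexp background correction.

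Arms of 1 hairpin come from the same precursor, so they can be compared on each array. For miR-153, the 5p arm minus the 3p arm was −5.95 to −5.58 on the log2 scale in WT mice and −6.35 to −5.79 in Dgcr8+/- mice. Only the change of this difference between genotypes is read, since probes differ in efficiency. It changed by −0.27 (standard error 0.08) in Dgcr8+/- mice, and 5 of 8 Dgcr8+/- mice were below every WT mouse. The lowest value, −6.35, was that of replicate 2, with arms at 4.71 and 11.06. Before normalization between arrays, these arms were at 4.22 and 10.12. The change was −0.14 with no normalization between arrays and 0.12 with the normexp correction, which used another spot signal and an added offset as well as another background correction. The cause of the turned sign was not tested. For miR-708, the difference was 0.11 to 0.65 in WT mice and 0.21 to 1.01 in Dgcr8+/- mice, a change of 0.18 (standard error 0.12), with every Dgcr8+/- mouse above the lowest WT mouse and broad overlap. This sign also turned, to −0.012 with the normexp correction and −0.20 with the mean of the probes' log2 values.

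The other arm of miR-139 was not among the selected miRNAs and was tested in the same fit. MiR-139-3p averaged 5.33 ± 0.05 (SD, n = 8) in WT and 5.32 ± 0.15 (SD, n = 8) in Dgcr8+/- mice on the log2 scale. The difference of −0.0094 (standard error 0.06) did not pass in limma, with an adjusted p of 0.906. The 5p arm minus the 3p arm was 5.14 to 5.27 in WT mice and 4.20 to 5.23 in Dgcr8+/- mice, a change of −0.24 (standard error 0.12), with 6 of 8 Dgcr8+/- mice below every WT mouse. This change includes Dgcr8+/- replicate 2, whose miR-139-5p value, 9.85, was far below the other Dgcr8+/- mice, at 10.24 to 10.49. The change without replicate 2 was not computed. The other arms of the remaining hairpins, miR-488-5p, miR-346-3p, miR-218-1-3p and miR-218-2-3p, were detected on no array.

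Whether the arms of a hairpin rise and fall together between mice of 1 genotype is independent of the genotype difference. For miR-153, Pearson's r was −0.278 (p = 0.478) over the 8 WT mice and 0.199 (p = 0.671) over the 8 Dgcr8+/- mice by a 2-sided exact permutation test. For miR-708, the exact permutation test gave r = −0.373 (p = 0.369) in WT mice and 0.366 (p = 0.393) in Dgcr8+/- mice. Spearman's rho was −0.590 (exact p = 0.134) and 0.548 (exact p = 0.171) for miR-153 in WT and Dgcr8+/- mice, and −0.429 (exact p = 0.299) and 0.262 (exact p = 0.536) for miR-708. After Benjamini-Hochberg adjustment over the 4 relations, p by the exact permutation test was 0.637 to 0.671 for r and 0.342 to 0.536 for rho. Without the 2 arrays farthest from the median of the 5p arm, r was −0.230 and −0.087 for miR-153 and −0.495 and −0.038 for miR-708. With 8 mice per genotype, no relation between the arms was detectable.

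After each genotype's mean was subtracted, the miRNAs whose values most resembled those of a member across the 16 arrays were identified by Pearson's r, as a description. All points share the array and its normalization. Dgcr8+/- replicate 2, which lay far from the other Dgcr8+/- mice for miR-139-5p and miR-153-3p, is included. How far r rests on this array was not tested. The miRNAs most like miR-139-5p were miR-193b-3p (r = 0.948), miR-383-5p (0.923) and let-7d-3p (0.911), and those most like miR-488-3p were miR-672-5p (0.933), miR-433-5p (0.926) and miR-598-3p (0.924). The nearest to miR-346-5p were miR-146b-5p (0.899), miR-300-5p (0.884) and miR-539-5p (0.878), and the nearest to miR-153-3p were miR-369-3p (0.887), miR-344e-3p (0.880) and miR-290a-5p (0.827). MiR-708-3p was nearest to miR-324-5p (0.858), miR-411-3p (0.808) and miR-598-3p (0.803), and miR-153-5p to miR-434-5p (0.794), miR-3068-5p (0.783) and miR-127-5p (0.782). MiR-708-5p and miR-218-5p were each other's nearest miRNA (0.689), followed by miR-22-3p (0.588 and 0.639) and by miR-29c-3p (0.565) and miR-378a-3p (0.634), respectively. Neither arm of miR-153 or miR-708 had the other arm among its 3 nearest miRNAs.

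Most of the tested miRNAs on a list of other host genes, named as neuronal, were lower. In which cells of the LV wall these hosts are expressed was not examined. Of 23 such miRNAs, 9 were tested, 7 were lower, none was higher and 2 passed in neither direction, beside the 27.9% lower and 28.3% higher over all tested miRNAs, with a median log2 fold change of −0.51. The greatest fall was that of miR-1298-5p, from the serotonin receptor gene Htr2c, at −0.64 (standard error 0.18, limma adjusted p = 0.00698). This miRNA was dim, with mean log2 signals of 3.89 in WT and 3.24 in Dgcr8+/- mice. It was detected on 8 WT and 5 Dgcr8+/- arrays. MiR-383-5p (−0.11) and miR-504-3p (0.05), listed under Sgcz and Fgf13, did not pass. The gene table held no locus for miR-383-5p, miR-504-3p and miR-598-3p, 3 of the 9 tested, so their listed hosts could not be checked. The 3 tested miRNAs of Htr2c come from the same gene and are not independent of each other. Nor are miR-342-3p (−0.41) and miR-342-5p (−0.59), the arms of the hairpin in Evl, which were both lower. This list was drawn up with earlier results of these data known, and it is not evidence for the direction of the 8 miRNAs.

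Among intronic miRNAs of widely expressed genes, 38 were listed and 30 were tested. Of these, 16 were lower, 1 was higher and 13 passed in neither direction, beside the 27.9% lower and 28.3% higher over all tested miRNAs, and the median log2 fold change was −0.21. The greatest fall on the list was that of miR-340-3p, from Rnf130, at −0.56 (standard error 0.09, limma adjusted p = 4.45e-05). MiR-326-3p, from Arrb1, was higher at 0.25 (standard error 0.06, limma adjusted p = 0.00181). The list did not hold every tested miRNA of these hosts, so its counts and median depend on which were listed. Not listed were, for example, miR-106b-3p of Mcm7, lower at −1.03 and detected on 3 of 8 Dgcr8+/- arrays, and miR-30c-1-3p of Nfyc, higher at 0.38. The gene table did not place miR-324-5p in a protein-coding gene on its own strand, so its listed host does not hold by that table. It held no locus for miR-140-5p and miR-151-5p, and for 5 of the 38 it did not hold the strand of the listed host. The difference between the lists was not tested.

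**Figure D4:**
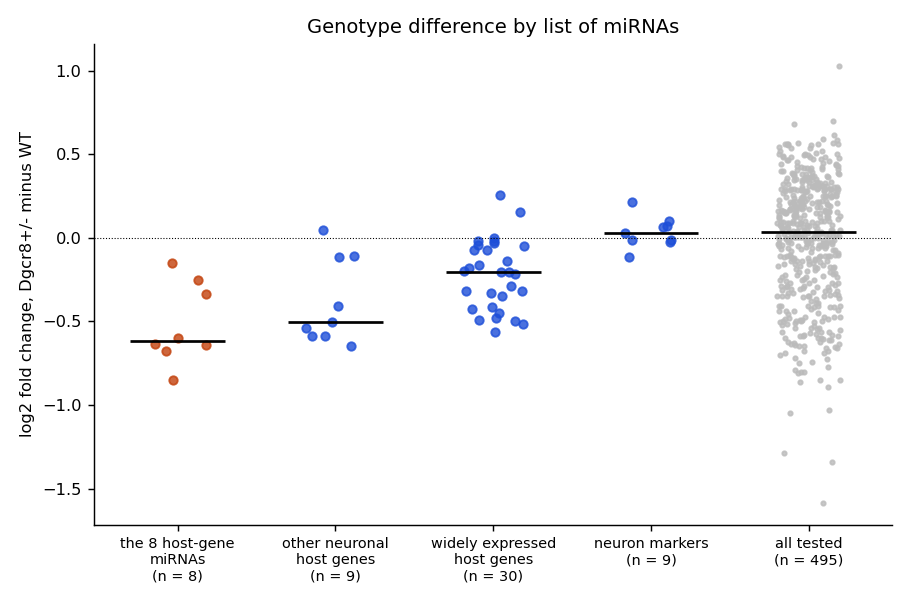
Log2 fold change (Dgcr8+/- minus WT, y axis) of each tested miRNA in 4 lists and in all 495 tested miRNAs (x axis, number tested under each name), with a line for the median. The medians are −0.62 for the 8 host-gene miRNAs, −0.51 for other neuronal host genes, −0.21 for widely expressed host genes, 0.03 for neuron marker miRNAs and 0.04 for all tested miRNAs.

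The direction of change was mixed among all tested miRNAs that lie in protein-coding genes. Of 173 tested miRNAs, without the 8 members, that lay in a protein-coding gene on the same strand, 27.2% were lower and 35.8% were higher, with a median log2 fold change of 0.12. Of 201 that did not, 26.9% were lower and 19.9% were higher, with a median of 0.0003. For 44 in a gene whose strand the tables did not hold, 11 were lower and 19 higher, and for 69 without a locus in the table the shares were 26.1% and 27.5%. The apical loop of the hairpin held the letters UGU, which the Dgcr8 side of the Microprocessor is known to favour, in 3 of the 6 member hairpins with a sequence, those of miR-139, miR-346 and miR-488, and in 31.5% of 644 hairpins with both arms. A match to these letters, searched on the RNA strand between the mature arms, is a description and no site.

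Most neuron marker miRNAs passed in neither direction. Of 9 tested, miR-128-3p, which is also in the list of neuronal host genes, was lower (log2 fold change −0.11, standard error 0.04, limma adjusted p = 0.0386), miR-138-5p was higher (0.21, standard error 0.05, limma adjusted p = 0.00123) and 7 passed in neither direction. Over all tested miRNAs, 27.9% were lower and 28.3% higher, and these shares also stand beside the counts of the other marker lists below. The log2 of the summed signal of the neuron markers was 15.59 to 15.71 in WT mice and 15.64 to 15.72 in Dgcr8+/- mice. Bright miRNAs, such as miR-124-3p at a WT mean of 14.14, weigh most in this sum. Of the 6 markers of ciliated cells, the ependymal cells that line the ventricle, 5 were tested and none passed, with a median of 0.29. The log2 of their summed signal was 9.08 to 10.33 in WT mice and 9.76 to 10.62 in Dgcr8+/- mice. MiR-449c-5p was detected on no array. Markers of choroid plexus (2 tested) and microglia (4 tested) each had 1 lower member, those of oligodendrocytes (3 tested) had 1 higher, those of blood vessels (4 tested) had 2 higher and those of red blood cells (3 tested) had 1 lower. The part of cell composition in the falls was not tested. The mRNA of Dgcr8 and of the host genes was not analysed here, so the fall of a miRNA cannot be set beside that of its host.

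The probes of each miRNA bear on how far a difference rests on a single probe. Of the 23 probes for the 8 miRNAs, the 4 that were at the floor on 1 or more arrays were those with the smallest signals. Both probes of miR-153-5p, of miR-153-3p, of miR-488-3p and of miR-218-5p and all 3 of miR-139-5p were lower.

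**Figure D5:**
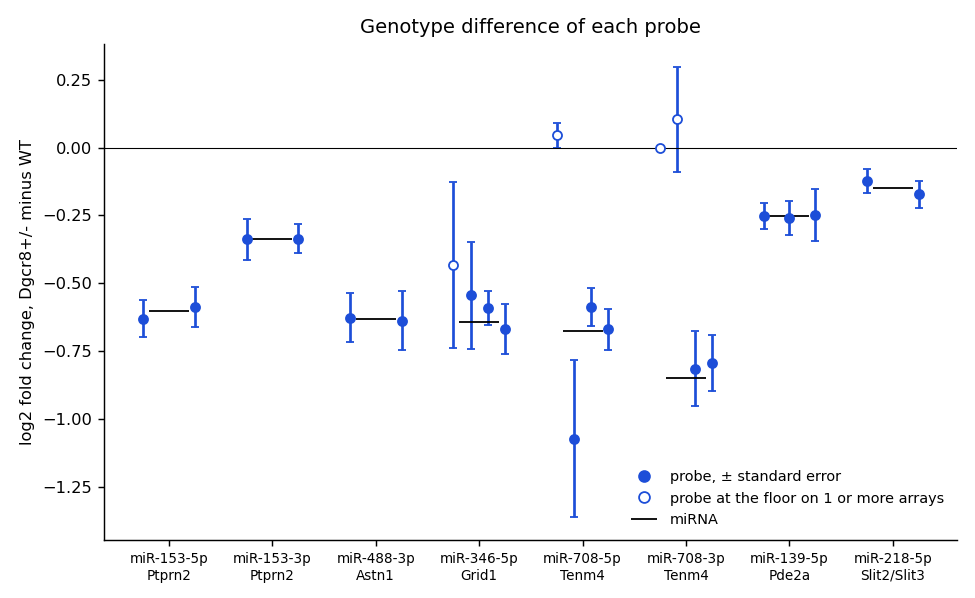
Log2 fold change (Dgcr8+/- minus WT, y axis, bars for the standard error) of each probe of the 8 miRNAs (x axis), with open circles for probes at the floor on 1 or more arrays and a line for the miRNA. The probes of miR-139-5p lie between −0.26 and −0.25, whereas the dim probes of the miR-708 arms lie at 0 to 0.10.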

How the data were processed

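LV wall RNA from 8 WT and 8 Dgcr8+/- mice was hybridized to 1-colour Agilent arrays (4415 probes). The files deposited for each array hold spot intensities that the Feature Extraction software (version 10.7.3.1 per the file headers, 10.5.1.1 per the labels) background-corrected without scaling between arrays. A deposited table of total intensity per miRNA held the same values as the software's total gene signal. Control and outlier-marked spots were left out, spots were averaged per probe, probes were quantile-normalized as in the study's methods, probes were averaged per miRNA, and log2 was taken with a floor of 1 signal unit. Such scaling removes a change shared by most miRNAs. Genotypes were compared with limma 3.58.1 (R 4.3.3) and Benjamini-Hochberg adjustment over 495 miRNAs, after the fit was tested on simulated data. Sequences and loci were from RefSeq tables (GRCm38.p6). The number of arrays limits the precision, and p-values measure the spread between these mice.

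The members, the lists and the rule for naming were chosen with earlier results of these data known. Named are the 8 members, the other arms of their hairpins, tested miRNAs with the same seed, the 3 most correlated miRNAs of each, and the list miRNAs with the greatest fall, the greatest rise or no call. MiR-7002-3p, which was not tested, the second miRNA without a call among other neuronal host genes, miR-324-5p, miR-342-3p, the list miRNAs without a locus, the neuron markers with a call and miR-449c-5p were named after their values were seen. So were miR-106b-3p and miR-30c-1-3p, which were on no list. Alternatives were 18 other settings of normalization, background, filter, probe summary, test and slide, and leaving out each array. Replicate numbers were not used to pair the mice. Versions of Python, pandas and scipy were 3.11.15, 2.3.3 and 1.17.1.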

Additional observations from a re-analysis of the deposited data

Results flagged for a closer look

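Each group of 8 arrays was searched for an array far from the rest by Dixon's criterion. Of 16 groups, 3 had such an array, and chance alone flags about 1 in 20 groups, or 0.8 of 16. The miR-153-3p value of Dgcr8+/- replicate 2 was 11.06, above the other Dgcr8+/- mice at 10.59 to 10.76, and the log2 fold change without this mouse was −0.38. Before normalization between arrays, this value was 10.12, within the other Dgcr8+/- mice at 10.06 to 10.77. The miR-708-5p value of Dgcr8+/- replicate 7 was 3.58, above the others at 3.09 to 3.31. The miR-139-5p value of Dgcr8+/- replicate 2 was 9.85, below the others at 10.24 to 10.49, and the log2 fold change without this mouse was −0.19. Replicate 2 was also the array with the lowest summed signal and labelling spike-ins, and the part of this in its values was not tested.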

How the results depend on the processing

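Of 13 results under 18 other settings, 216 values were labelled the same, 10 weaker, 1 stronger, 4 reversed and 3 moved. All 208 with 1 array left out were labelled the same. The counts and the arm differences among these results have no call. Values labelled the same could differ in size, such as miR-708-3p at −0.09 with normexp, from −0.85. For miR-218-5p, the call was lost with the 75th percentile of probes detected on all arrays (−0.13), with the deposited total signal (−0.070), with marked spots kept (−0.14) and on slide 1 alone (−0.12). It was lost for miR-139-5p with marked spots kept (−0.22) and on slide 2 alone (−0.15), and for miR-153-3p on slide 1 alone (−0.19). With the deposited total signal, miR-708-5p went from −0.67 to −0.35 and kept its call. With marked spots kept, miR-708-5p reversed to 0.37, because of 1 spot. In that setting 5 members were lower, beside 118 lower and 116 higher of the 495 tested. The 5p minus 3p difference reversed with normexp for miR-153 (0.12) and miR-708 (−0.012), and for miR-708 with the mean of log2 probes (−0.20). It moved to −0.45 for miR-153 on slide 1 alone, and for miR-708 to 0.43 with the deposited signal and 1.18 with marked spots kept. Except for the marked spot, the cause was not tested.

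Over all tested miRNAs, 138 were lower and 140 higher. With no normalization, 293 were lower and 0 higher in limma (0 at an unadjusted p under 0.05, and 0 adjusted and 2 unadjusted by the methods' t-test). With the 75th percentile of the always-detected probes, the counts were 126 and 210, and the median of all tested miRNAs was 0.14. On slide 1 alone, 124 were lower and 89 higher.

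With 1 array left out, the log2 fold change was −0.63 to −0.56 for miR-153-5p, −0.38 to −0.32 for miR-153-3p, −0.67 to −0.57 for miR-488-3p, −0.67 to −0.60 for miR-346-5p, −0.72 to −0.64 for miR-708-5p, −0.90 to −0.79 for miR-708-3p, −0.28 to −0.19 for miR-139-5p and −0.18 to −0.13 for miR-218-5p. The deviations of same-numbered mice correlated at −0.141 to 0.496, over 0.1 in 5 of 8 pairs. The numbers were not taken as pairing the mice, because that needed every pair to be over 0.1. With a replicate block, 8 members were lower, and in all 140 miRNAs were lower and 147 higher.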
